A study of Mus musculus with 4 samples.

Results

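The members of the microglial lipid-sensing pathway around Trem2, Tyrobp and Apoe were described in single microglia of the adult mouse brain. The members were chosen by symbol as Trem2, Tyrobp, Apoe, Lpl, Cst7, Lgals3, Itgax, Spp1, Axl and Cd9, and all 10 were found among the 28692 genes of the table. Gene expression was measured in 4 single-cell libraries, each from 1 male C57BL/6J mouse at postnatal day 90 (P90). Every mouse had been injected with PBS into the tail vein, per the labels 24 hours before it was killed, and no genetic change or disease model is named. Cortex and hippocampus were dissociated by cold Dounce homogenisation, which is mechanical and uses no enzymes, and live CD45+/CD11b+ cells were sorted. All libraries therefore form 1 group, called here cold Dounce, PBS (n = 4), with replicates 1 to 4 numbered in accession order, and no treated group was compared. A total of 13002 cells had 400 genes or more and no more than 10% of mitochondrial UMIs (unique molecular identifiers, each standing for 1 captured RNA molecule), with 2576 to 3692 cells and 5841671 to 11267195 UMIs per library.

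TREM2 is a receptor on the surface of microglia that binds lipids and lipoproteins, among them apolipoprotein E, the product of Apoe. It has no signalling tail of its own and passes its signal through the adaptor TYROBP (DAP12) to the kinase SYK. Lpl, Cst7, Lgals3, Itgax, Spp1, Axl and Cd9 are known as genes of disease-associated microglia, a state found around amyloid plaques and in demyelination, in which homeostatic genes such as P2ry12 are lowered and the later steps need Trem2. In the healthy adult brain, Trem2 and Tyrobp are regarded as genes of all microglia and the others mostly as genes of rare cells.

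All members were protein-coding genes in the GENCODE M21 annotation of GRCm38. The receptor and its adaptor lay at chr17:48346401-48354147 on the plus strand (Trem2) and chr7:30413760-30417585 on the plus strand (Tyrobp). Apoe lay at chr7:19696109-19699188 on the minus strand. The lipase gene Lpl spanned chr8:68880491-68907448, Cst7 chr2:150570415-150578944, Lgals3 chr14:47367751-47386160, Itgax chr7:128129547-128150657 and Spp1 chr5:104435118-104441050, all on the plus strand. The minus strand held Axl (chr7:25757273-25788705) and Cd9 (chr6:125460266-125494791).

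Promoter windows from RefSeq (GRCm38.p6, 250 bases before to 50 bases after a start site) were found for 8 of the 10 members, in 11 windows, and none was matched for Tyrobp and Lpl. The 4 motifs below were searched on both strands. The stretches around the matches are shown because constitutive and rare members shared a motif in its loose form. GAGGAAGT, a core of the site of PU.1, the lineage factor of macrophages, was in the windows of 1 member and in 3.20% of all 32851 windows. TGANTCA, a loose form of the site of AP-1, the Fos and Jun factor, allows any base in the middle. It was in windows of 3 members and in 7.81% of all windows. The usual site has C or G in the middle, and among the members' matches only that of Itgax (TGAGTCA) did. The E-box CACGTG, in 7.15% of all windows, and its extended form CACGTGAC, which overlaps it and was in 2.25%, were in none of the members' windows. These matches are descriptions of letters and not of binding. The matched stretches, 5′ to 3′ on the plus strand with the motif in capitals, were the following.
Spp1, PU.1 core, chr5:104434987-104435016: caaaaccagagGAGGAAGTgtaggagcagg
Cst7, AP-1, chr2:150570398-150570426: tctggttaaaaTGATTCAgcaagaaacca
Itgax, AP-1, chr7:128129483-128129511: cccacctcctcTGAGTCAcgctgacaact
Trem2, AP-1, chr17:48346381-48346409: ttctccctcctTGAATCAcagcgcctacc

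The cells were checked against markers of their labelled type. Summed microglial markers (10 genes) ranged from 38133 to 39654 CPM (UMI counts scaled to the same total in every library), erythroid markers (4 genes) were all at 0, and endothelial markers (4 genes, 3 of them at 0) reached 0.709 CPM. T and NK cell markers (5 genes, 3 at 0) reached 0.283 CPM, neuronal markers (4 genes, 1 at 0) 2.13 CPM and neutrophil markers (5 genes, 4 at 0) 1.54 CPM. The list of ex vivo activated microglia (exAM, 25 genes), which the study linked to handling of cells, was highest in replicate 4, at 4638 CPM against 2751 to 2909 CPM in the others, and the study names a sorter clog for its last animal. Of 13054 distinct cell barcodes, 84 occurred in more than 1 library. No doublets were called or removed.

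Trem2 and Tyrobp stood at nearly the same level in all 4 mice, Cd9 varied little, and Apoe differed most among the members at 10 CPM or more. Trem2 measured 2982, 3106, 3140 and 2913 CPM in replicates 1 to 4 (3035 ± 106, SD, n = 4), a coefficient of variation of 3.50%. Tyrobp measured 3445, 3657, 3434 and 3469 CPM (3501 ± 104), and replicate 2 lay above the other libraries. Cd9, a tetraspanin of the cell surface, measured 2035, 1829, 2116 and 1972 CPM (1988 ± 121), with a coefficient of variation of 6.11%. For comparison, the median coefficient of variation over the 7656 genes with a mean of at least 10 CPM was 7.75%.

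Apoe measured 582, 645, 566 and 1191 CPM (746 ± 298, SD, n = 4). Replicate 4 was the high library and the other 3 lay close together. Fewer cells of a type and less RNA per cell cannot be told apart in such sums, so they were recomputed without the cells of 2 small clusters that were rich in Apoe and are described below. In microglia-like cells alone, Apoe measured 440, 475, 341 and 548 CPM (451 ± 85.9), so replicate 4 remained highest and the range narrowed.

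The other members of this set were scarce. Cst7, which encodes cystatin F, an inhibitor of lysosomal cathepsins, was even across the mice at 15.6, 17.1, 14.7 and 15.6 CPM (15.7 ± 1.004, SD, n = 4). Lpl, lipoprotein lipase, measured 6.52, 9.23, 13.2 and 7.999 CPM (9.23 ± 2.86). Lgals3, which encodes the carbohydrate-binding galectin-3, measured 12.8, 7.54, 10.8 and 17.9 CPM (12.2 ± 4.33). In microglia-like cells alone Lgals3 fell to 1.72, 6.65, 3.49 and 6.01 CPM, and the order of the libraries changed.

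Axl, a receptor tyrosine kinase for the bridging ligand GAS6, measured 3.40, 3.20, 2.91 and 5.56 CPM (3.77 ± 1.21, SD, n = 4), and in microglia-like cells 3.01, 2.79, 1.74 and 3.06 CPM. Itgax, the integrin subunit CD11c, measured 2.13, 2.04, 3.42 and 2.11 CPM (2.43 ± 0.667) from 15, 23, 20 and 19 UMIs. Spp1, osteopontin, measured 1.98, 2.04, 3.25 and 0.889 CPM (2.04 ± 0.966) from 14, 23, 19 and 8 UMIs. The 95% Poisson interval of Itgax in replicate 3, the highest library, ran from 2.09 to 5.29 CPM and overlapped those of the other 3. For Spp1, the interval of replicate 4 (0.384 to 1.75 CPM) did not reach that of replicate 3 (1.96 to 5.08 CPM).

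With 1 group, the only comparison between mice was whether 1 library stood apart by Dixon's range test (two-sided, on the log2 scale with a pseudocount of 1), which sets the gap to the nearest library against the range of all 4. Replicate 2 stood apart for Tyrobp, where the gap was 0.838 of the range, and replicate 3 for Itgax, where it was 0.927. Among all genes with a mean of at least 10 CPM, 4.62% had a library apart, and 1 of the 6 members in that range did so. Apoe reached 0.825, just short of the threshold. In microglia-like cells alone no member had a library apart.

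**Figure D1:**
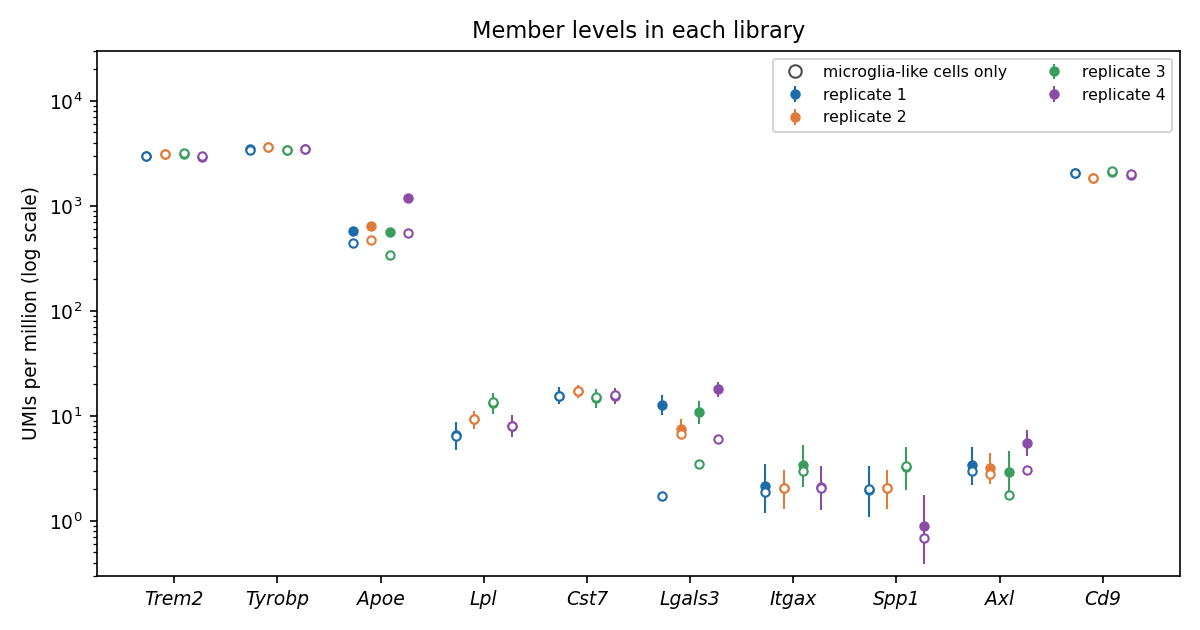
Level of each member in each library, as CPM on a log axis, over all cells passing quality control (filled, with 95% Poisson intervals of counting error) and over microglia-like cells only (open). Trem2, Tyrobp and Cd9 lie near or above 2000 CPM in every library, Apoe is highest in replicate 4 at 1191 CPM, and the open points of Apoe, Lgals3 and Axl lie below the filled ones.

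To separate genes of all microglia from those of few, every cell of the microglia-like clusters was thinned at random to 1000 UMIs (12624 cells, 2471 to 3648 per library), and the share of cells with at least 1 UMI was counted. A gene present at 1 level in every cell would still be missed in some cells, at a rate given by a Poisson draw, so that expected share was set beside the observed one. A set of 3 members was found in at least 50% of cells in every library and is called constitutive here. A further 6 members were found in under 10% of cells in every library and are called rare. Apoe alone lay between.

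Trem2 was found in 94.1, 94.96, 95.5 and 93.4% of cells in replicates 1 to 4, against a mean Poisson share of 95.3%. Tyrobp was found in 95.9, 97.1, 96.0 and 95.9% of cells, against 96.8%. Their Fano factors (variance over mean of UMIs per cell, 1 in a pure Poisson draw) averaged 1.12 for both genes, so the receptor and its adaptor varied between microglia little more than counting does. Cd9 was found in 83.9, 80.3, 84.1 and 82.7% of cells, against a Poisson share of 86.3%, with a mean Fano factor of 1.34.

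Apoe was found in 18.0, 21.8, 14.5 and 27.6% of cells, where 1 level in all cells would give a mean of 34.4%. Its UMIs were concentrated in few cells. The Fano factor was 17.4, 13.2, 15.5 and 9.49 in replicates 1 to 4, and the 1% of cells with the most Apoe held 36.6% of its UMIs. Counted without thinning, 527 microglia-like cells with 5 or more Apoe UMIs held 57.2% of them, while 2939 cells had a single one.

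For rare genes, an observed share near the Poisson share does not show an even spread, since at such low means nearly every positive cell holds a single UMI. Cst7 was found in 1.44, 1.48, 0.971 and 1.35% of cells, against a Poisson mean of 1.35%, with a Fano factor of 1.06. Itgax was found in 0.202, 0.329, 0.324 and 0.099% of cells, against a mean of 0.238% for both the observed and the Poisson share. Whether a subset of cells carried Cst7 or Itgax was not detectable from these shares at 1000 UMIs per cell.

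Lpl was found in 0.404, 0.713, 0.809 and 0.560% of cells (14, 26, 20 and 17 cells), against a Poisson mean of 0.901%, with a mean Fano factor of 2.74. Lgals3 was found in 0.173, 0.384, 0.243 and 0.461% of cells, against 0.456%, with a mean Fano factor of 2.39. Spp1 was found in 0.086, 0.055, 0.162 and 0.066% of cells, against 0.160%, with a mean Fano factor of 2.46. Lpl and Lgals3 had fewer positive cells than the Poisson share in every library. Spp1 did so in replicates 2 and 3 alone (Fano factors 4.33 and 3.50, with at most 5 UMIs in a cell), while in replicates 1 and 4 no cell had more than 1 UMI.

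Axl, in 0.231, 0.192, 0.162 and 0.099% of cells against a Poisson mean of 0.199%, had a Fano factor of 1.83 in replicate 1 and close to 1 in the others. Without thinning, 7 of the 168 microglia-like cells with Lpl had 5 or more UMIs and held 37.2% of its UMIs. The corresponding values were 4 of 79 cells and 37.7% for Lgals3, and 3 of 23 cells and 61.3% for Spp1. Itgax and Axl never exceeded 3 UMIs in a cell, and Cst7 reached 7. No cell type that lacks these genes was large enough to give a background share, since none of the 29 macrophage-like cells of cluster 8 (described below) had a UMI of Lpl, Cst7, Lgals3, Itgax or Spp1 at 1000 UMIs, which allows up to 10.3%.

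**Figure D2:**
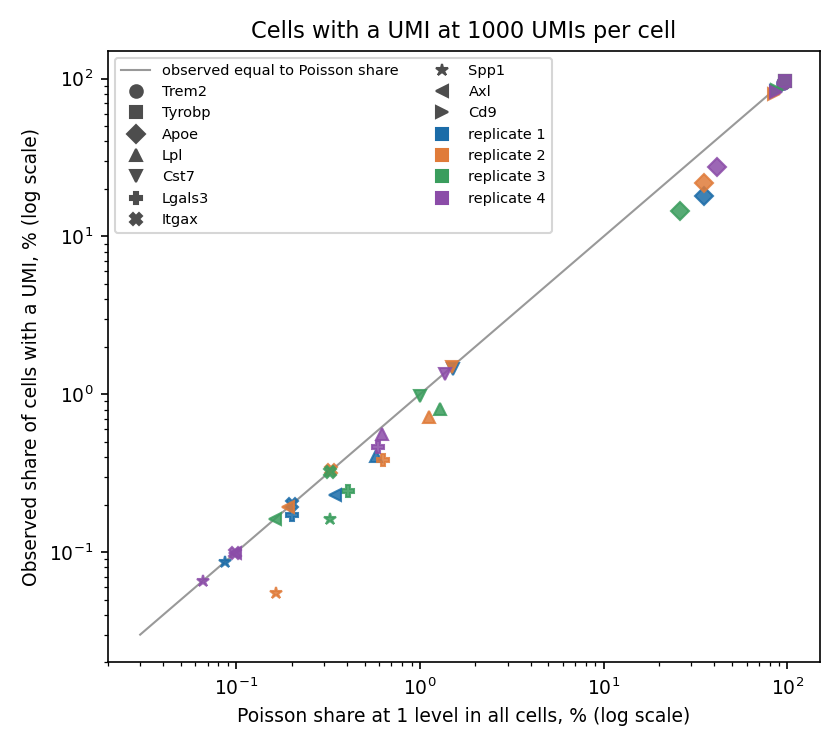
Share of microglia-like cells with at least 1 UMI of each member at 1000 UMIs per cell (y axis, %) against the share that 1 level in all cells would give by a Poisson draw (x axis, %), both on log axes, with 1 point per library. Cst7 and Itgax lie on the line of equality, while Apoe lies below it in every library (a mean of 20.5% observed against 34.4%).

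Other genes of TREM2 signalling were scarcer per cell than the receptor and adaptor. Of 14 partners, which comprised the alternative adaptor Hcst, the kinases Syk and Btk, the phospholipase Plcg2, the phosphatases Inpp5d and Ptpn6, the sheddases Adam10 and Adam17, the inhibitory receptor Cd33, and Vav1, Grb2, Lat2, Pik3cg and Pik3r1, none was in at least 50% of cells in every library, 8 were intermediate and 6 were rare. Syk was in 5.63% of cells on average, Plcg2 in 6.18%, Cd33 in 25.9% and Inpp5d in 29.6%. Their summed level was 2128, 2037, 2131 and 2129 CPM in replicates 1 to 4. These counts were taken at the 3′ end of transcripts, and levels of different genes also carry differences in capture.

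Of 25 further genes of disease-associated microglia found in the table, 7 were constitutive by the same rule, 7 intermediate and 11 rare. The constitutive ones included the cathepsins Ctsd, Ctsb, Ctsz and Ctsl, found in 99.97, 91.2, 85.0 and 78.0% of cells, and the lysosomal glycoprotein Cd68, in 63.1%. The growth factor gene Csf1 was in 0.506% of cells, Igf1 in 0.0727% and Gpnmb in 0.00685%. Of 15 homeostatic genes, 13 were constitutive and 2 intermediate, and P2ry12, a purinergic receptor that marks homeostatic microglia, was in 98.8%.

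Clustering was carried out without the members and without the handling-related genes as variable genes. It gave 9 clusters and 5 single cells that joined none. Clusters 0 to 3 were microglia-like and held 4306, 3736, 2651 and 1739 cells, cluster 4 was interferon-responsive microglia-like (182 cells, led by Ifit3 and Isg15), and cluster 5 was microglia-like with few UMIs (181 cells, median 1056). Cluster 6 was microglia-like (93 cells), led by the chemokine genes Ccl4 and Ccl3 together with Lpl, Lgals3, Spp1 and Apoe. Cluster 7 (80 cells) was led by Cd74 and other MHC class II genes with the monocyte gene Plac8 and was left unnamed, and cluster 8 (29 cells) was border-associated macrophages-like, led by Pf4, Mrc1 and Ms4a7. Values by cluster are descriptions, since the clusters were made from these cells.

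Trem2 was level across clusters 0 to 4 and higher in cluster 5, whose cells had few UMIs. It measured 2897 to 3128 CPM in clusters 0 to 4, 5309 CPM in cluster 5 and 3409 CPM in cluster 6. It was 2188 CPM in cluster 8 and 753 CPM in cluster 7. Tyrobp measured between 3223 and 4172 CPM in all 9 clusters, cluster 7 included at 3683 CPM, so the adaptor was as high in cluster 7 as in the microglia-like clusters and the receptor was not.

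In cluster 7, Trem2 was found in 36.7% of 79 cells at 1000 UMIs and P2ry12 in 34.2%, against 94.6 and 99.0% in the microglia-like cells without Apoe. Of other microglial markers, Tmem119 was found in 34.2% and Cx3cr1 in 58.2% of the cells of cluster 7. Whether Trem2 there was expressed by these cells or came from free RNA was not tested. Cd9 was likewise found in 34.2% of these cells. It measured 1634 to 2019 CPM in clusters 0 to 4, 3537 in cluster 5, 4680 in cluster 6, 540 in cluster 7 and 1412 in cluster 8.

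Apoe was lowest in cluster 1 at 254 CPM and measured 288, 359 and 616 CPM in clusters 2, 3 and 0. It measured 659 CPM in cluster 4, 839 CPM in cluster 5 and 4961 CPM in cluster 6. The level of cluster 5 came mainly from replicate 4, since it was 470, 236, 267 and 2142 CPM in replicates 1 to 4. The highest levels were those of cluster 7, at 18722 CPM, and cluster 8, at 23418 CPM, where all 29 cells held Apoe. Clusters 7 and 8 together made up 0.838% of cells and held 40.3% of all Apoe UMIs. By library, that share was 25.1, 27.3, 40.7 and 54.9% in replicates 1 to 4, highest in the library with the highest Apoe level.

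Cells of cluster 7 numbered 25, 12, 10 and 33 in replicates 1 to 4, and those of cluster 8 numbered 0, 7, 9 and 13. Within cluster 7 Apoe measured 14963, 16509, 7907 and 24761 CPM in replicates 1 to 4. Within cluster 8 it measured 13662, 15681 and 48072 CPM in replicates 2 to 4, and in replicate 2 this was below cluster 7. Both the number of these cells and the Apoe level within each cluster were therefore highest in replicate 4. Without both clusters, the Apoe level was 440, 475, 342 and 548 CPM. Border-associated macrophage markers without Stab1, which microglia also express, measured 12.6, 38.9, 59.4 and 79.7 CPM (7 genes, none at 0) and were, like Apoe, highest in replicate 4. Astrocyte markers (6 genes, none at 0 in every library), of a cell type that makes much Apoe, measured 1.56, 2.31, 1.03 and 6.44 CPM, also highest in replicate 4. Most of that last sum was 1 gene, Aldoc, at 4.89 CPM. Slc1a2 and Gfap were also highest in replicate 4, whereas Aqp4 and Atp1b2 were at 0 there and Gja1 was not highest. The rise in the sum is therefore not one of the whole list. The part of either marker list in the Apoe level was not tested.

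Lgals3 and Axl were also higher in cluster 7. Lgals3 measured 852 CPM there, 272 CPM in cluster 6 and at most 2.52 CPM in clusters 0 to 3, and it had 0 UMIs in clusters 4, 5 and 8. In cluster 8, 0 of 29 cells allows a share of up to 10.3%. Cluster 7 held 60.2% of all Lgals3 UMIs (86.7, 12.9, 68.3 and 67.1% by library), and without it the level was 1.72, 6.59, 3.45 and 5.97 CPM. Monocyte markers (6 genes, none at 0) measured 38.4, 14.2, 42.6 and 56.7 CPM and, like Lgals3 over all cells, were lowest in replicate 2 and highest in replicate 4, and their part was not tested. Axl measured 131 CPM in cluster 7, 47.7 CPM in cluster 6, 12.3 CPM in cluster 4 and 1.06 to 2.91 CPM in clusters 0 to 3.

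The remaining rare members were highest in cluster 6. Lpl measured 384 CPM there against 3.79 to 6.36 CPM in clusters 0 to 3, and Spp1 measured 104 CPM against 0.133 to 1.41 CPM. Cst7 measured 132 CPM against 11.3 to 18.6 CPM, and Itgax 50.5 CPM against at most 2.56 CPM. Lpl and Spp1 had 0 UMIs in cluster 8.

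**Figure D3:**
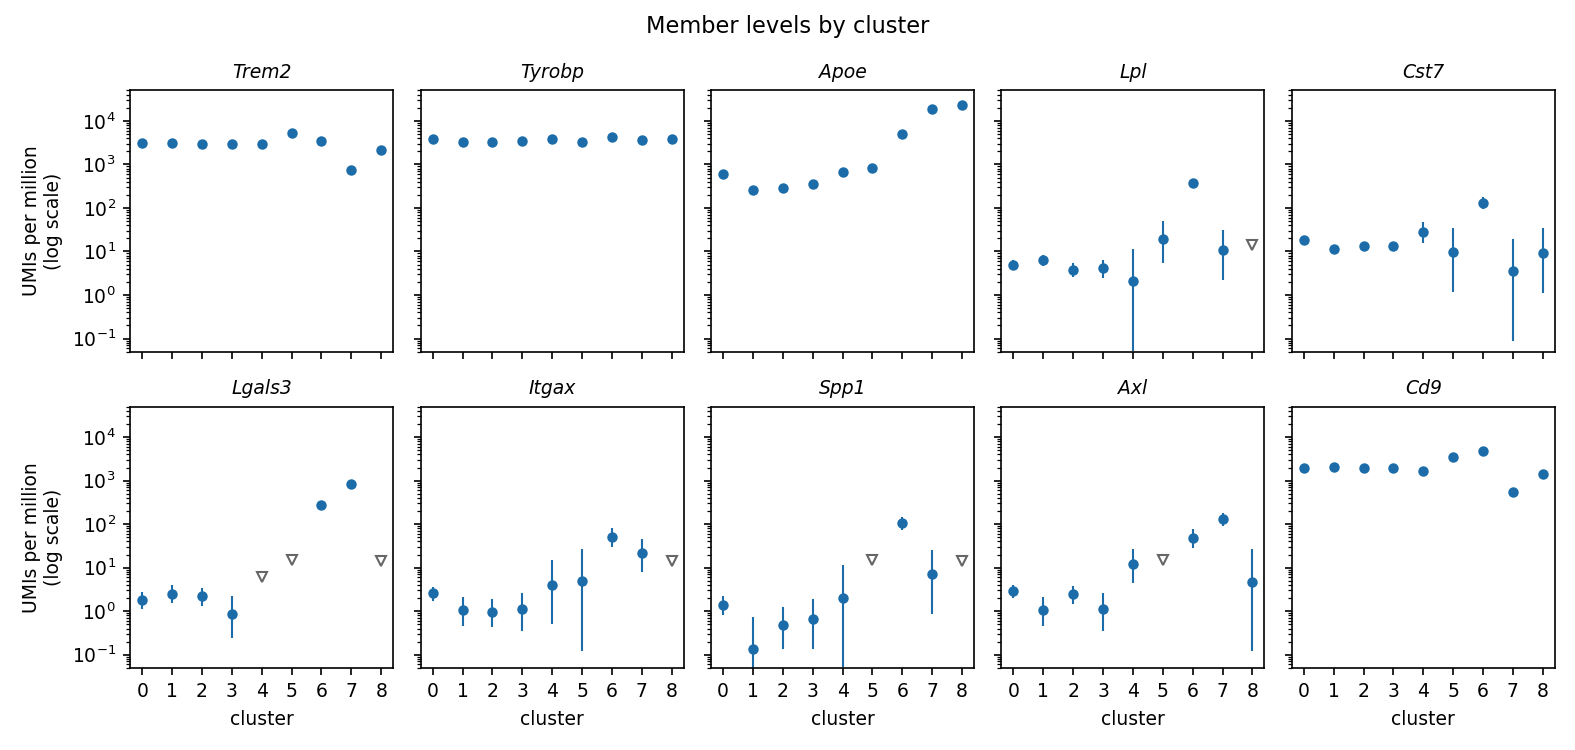
Level of each member in clusters 0 to 8, in CPM on a log axis shared by all panels, with 95% Poisson intervals of counting error, and open triangles at the level of 3 UMIs where a member had none. Tyrobp is flat across the clusters, Lpl, Cst7, Itgax and Spp1 peak in cluster 6, and Apoe and Lgals3 are high in both cluster 6 and cluster 7.

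Cluster 6 was the microglia-like cluster in which the rare members met. It was singled out as the one with the highest Lpl level, so its high Lpl is not a separate result. Its 93 cells (20, 26, 18 and 29 by library) were 0.715% of all cells and held 57.8% of the Spp1 UMIs, 45.8% of those of Lpl, 24.3% of Lgals3, 23.4% of Itgax and 13.4% of Axl, but only 8.88% of Cst7 and 6.96% of Apoe. P2ry12 measured 2411, 2036, 1713 and 2429 CPM in its cells, against 4921 to 6297 CPM in clusters 0 to 3. Border-associated macrophage markers were nearly absent, with Mrc1 in 1, Pf4 in 2 and Ms4a7 in 1 of the 93 cells. Trem2 (3388, 3399, 3353 and 3451 CPM) hardly differed between its libraries.

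The rare members of cluster 6 varied more between mice. Lpl measured 303, 556, 595 and 184 CPM in replicates 1 to 4, and Apoe 3304, 5902, 6436 and 4281 CPM. Lgals3 measured 33.7, 457, 234 and 238 CPM, lowest in replicate 1. Spp1 measured 169, 188, 90.1 and 7.69 CPM, lowest in replicate 4. Cst7 was more even at 84.3, 135, 108 and 161 CPM, and all 4 libraries lay above the levels of clusters 0 to 3.

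Within cluster 6, expression was again concentrated in few cells. Apoe was found in 55 of the 93 cells, and the 5 cells with the most held 75.6% of its UMIs, 1 of them with 566. Lpl was found in 26 cells, with 69.3% of its UMIs in 5 of them, and Spp1 in 9 cells, with 89.2% in 5. Cst7 was found in 29, Lgals3 in 23, Itgax in 12 and Axl in 11. Of the 93 cells, 35 had no rare member, 25 had 1, 21 had 2, and 12 had 3 or more.

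Ccl4, which encodes a chemokine and led the cluster, was found in 38 of the 93 cells. It was present in 15 of the 35 cells without a rare member and in 23 of the 58 cells with at least 1. Its level of 270, 466, 3642 and 546 CPM was highest in replicate 3, whereas the exAM list was highest in replicate 4. Ccl4 and Ccl3 belong to that list, and the part of handling in this cluster was not tested. The median cell of cluster 6 had 3594 UMIs and that of cluster 8 had 5392, against 1958 to 2931 in clusters 0 to 3, so doublets and depth stand beside these values untested.

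The overlap of rare members was counted at 1000 UMIs over all microglia-like cells. At least 1 of the 6 rare members was found in 331 of 12624 cells (2.62%), and the product of the single shares would give 346. At least 2 were found in 17 cells, against 3.29 by the product, and 10 of these 17 (58.8%) lay in cluster 6. Of the 331 cells with at least 1, 38 (11.5%) lay in cluster 6. Most cells with a UMI of a rare member therefore held no other one and lay in the large clusters.

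By pairs, Trem2 and Tyrobp were found together in 11488 cells, where the product of their shares gives 11478, and Trem2 and Cd9 in 9866 against 9852. Lpl and Lgals3 were found together in 5 cells against 0.251, of which 4 lay in replicate 2 and 1 in replicate 4. Without replicate 2 it was 1 cell against 0.151. Apoe was found with Axl in 10 cells against 4.38, with Itgax in 12 against 5.87 and with Lgals3 in 17 against 8.87. With Cst7 the counts were 47 against 35.6, and with Lpl 20 against 15.8. The single cell with both Lpl and Cst7 compares with 1.01 by the product.

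Across cells within a library, correlations were weak, and they are descriptions over 12624 cells of 4 libraries that share depth and composition. The genes most like a member among the 3012 searched, with a mean Pearson r over the libraries of at least 0.1, were Ctsd for Trem2 (0.105), Cst3 for Tyrobp (0.161), Lyz2 and Ctss for Apoe (0.122 and 0.109) and Ctsd for Cd9 (0.127). None reached 0.1 for the rare members.

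Cells were then ordered by their Apoe UMIs at 1000 UMIs per cell. The 6 steps, from 0 to 10 or more Apoe UMIs, held 10005, 1872, 396, 200, 93 and 58 microglia-like cells. P2ry12 averaged 5.59, 5.603, 5.10, 4.61, 3.87 and 2.96 UMIs per cell over the 4 libraries along these steps. Tyrobp averaged 3.40 UMIs in the lowest step and 4.66 ± 1.21 (SD, n = 4) in the highest, and Trem2 3.05 and 3.77 ± 1.22. Replicate 3, with 7 cells, was far above the others in the highest step for both, at 6.29 UMIs of Tyrobp and 5.57 of Trem2.

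The rare members were also found more often in the step with 10 or more Apoe UMIs. Axl was found in 0.120% of cells without Apoe and 8.62% of the 58 cells, Lgals3 in 0.230 and 6.90%, Cst7 in 1.22 and 5.17%, Lpl in 0.570 and 3.45%, Itgax in 0.1799 and 3.45%, and Spp1 in 0.080 and 1.72%. Each of the shares in the 58 cells rests on 5 cells or fewer. These 58 cells came from all libraries (18, 16, 7 and 17), and 39 of them lay in cluster 0 and 7 in cluster 6. All of the cells with Lgals3 among them lay in cluster 6, since 0 of the 51 outside it had a UMI.

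P2ry12 was lower in these cells, and macrophage genes were found more often. P2ry12 was found in 86.2% of the 58 cells, at 2.95 UMIs, against 5.57 UMIs in the cells without Apoe. Mrc1 was found in 6.90% and Pf4 in 1.72% of them, against 0.330 and 0.240% in cells without Apoe and 72.4 and 82.8% in cluster 8. Cd74 was found in 10.3%, against 3.14% without Apoe and 78.5% in cluster 7. Mixed droplets and free Apoe RNA were not tested.

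**Figure D4:**
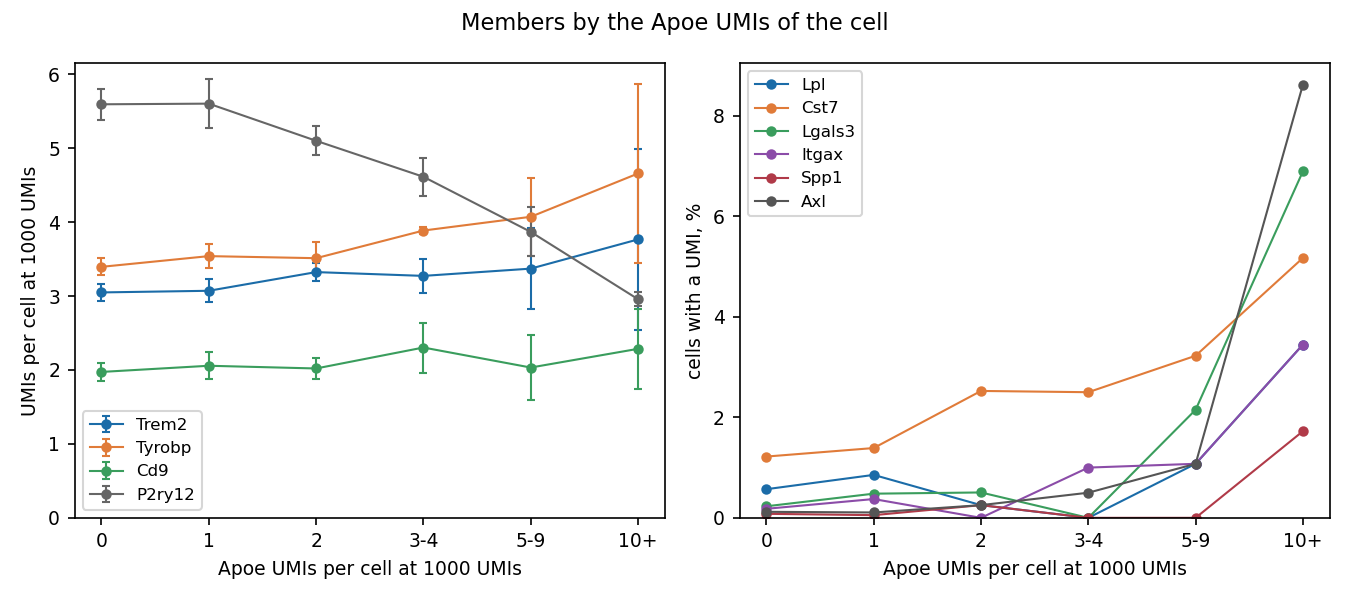
Left, mean UMIs per cell (points, mean of 4 libraries; bars, SD) of Trem2, Tyrobp, Cd9 and P2ry12 in microglia-like cells ordered by their Apoe UMIs, all at 1000 UMIs per cell. Right, share of those cells (%) with a UMI of each rare member. P2ry12 is 5.59 without Apoe and 2.96 at 10 or more Apoe UMIs, and the rare members are most frequent in the last step, which holds 58 cells.

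To test which genes went with a member, counts were summed per library over the microglia-like cells with and without a UMI of it, and the sums were compared with edgeR's quasi-likelihood test with the library as a block (n = 4 pairs, Benjamini-Hochberg over all genes tested). The 4 libraries are the replicates and the member itself was left out. A missing UMI is no proof that a gene was off, least of all for Trem2.

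Cells with a UMI of Trem2 had more Cd9. In replicates 1 to 4, Cd9 measured 2038 against 1863, 1855 against 1560, 2139 against 1893 and 2032 against 1628 CPM, higher with Trem2 in 4 of 4 libraries. The fitted log2 difference was 0.24 (SE 0.045, adjusted p = 0.00492), and Ctsd, which encodes cathepsin D, was the only other gene called (0.17, adjusted p = 1.15e-04). In either direction 0.0240% of the 8347 genes were called, and 1 of the 5 members tested. Tyrobp differed by 0.05 (adjusted p = 0.983) and Apoe by 0.14 (adjusted p = 0.983). The call of Cd9 was lost with DESeq2 (adjusted p = 0.825), without replicate 2 (0.0915) and without replicate 4 (0.328).

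Cells with a UMI of Apoe had slightly more Tyrobp and Cd9. Tyrobp measured 3457 against 3350, 3784 against 3566, 3704 against 3338 and 3503 against 3329 CPM, higher with Apoe in 4 of 4 libraries, and the log2 difference was 0.11 (SE 0.022, adjusted p = 8.93e-05). Cd9 was higher in 4 of 4 libraries by 0.10 (SE 0.027, adjusted p = 0.0203), but its call was lost without any 1 of the libraries, with DESeq2 (adjusted p = 0.303) and without TMM scaling (0.333). Trem2 (0.08, adjusted p = 0.0945) and Cst7 (0.58, adjusted p = 0.526) were higher in 4 of 4 libraries and were not called. Of 8572 genes 0.910% were called higher, and 2 of the 5 members tested.

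Lgals3, Itgax, Spp1 and Axl did not pass the filter on low counts in this fit. Their mean levels with and without Apoe were 8.82 and 3.51 CPM for Lgals3, 5.36 and 1.73 CPM for Itgax, 2.97 and 1.29 CPM for Spp1, and 4.54 and 1.32 CPM for Axl. Among the genes called higher with Apoe were the lysozyme gene Lyz2 (498 against 344 CPM, log2 0.55), the lysosomal membrane gene Cd63 (log2 0.35), the MHC class I gene H2-D1 (0.29), Lag3, Tmem176a and Klf2, and ribosomal genes (Rpl22l1, Rpl36, Rpl32). Atad1 and Ccnd1 were called lower.

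Cells with 3 or more Apoe UMIs (105, 85, 47 and 114 cells) were compared with the same cells without Apoe, so this comparison shares its control cells with the one above. Axl measured 28.8 against 2.46, 23.7 against 1.40, 21.4 against 1.42 and 17.7 against 0 CPM, from 3, 2, 1 and 2 UMIs in the cells with Apoe. Lgals3 measured 9.61 against 1.76, 23.7 against 4.91, 21.4 against 2.84 and 53.0 against 4.55 CPM, from 1, 2, 1 and 6 UMIs. Both were above the minimum on low counts in the cells with Apoe alone, and a gene kept on that ground had to differ, so their calls in this fit are not read as a result. Fitted without that filter, Axl differed by 3.96 on the log2 scale (adjusted p = 0.0327) and Lgals3 by 2.84 (adjusted p = 0.0746). These values rest on the same few UMIs and are not read as a result. Of 7997 genes 0.763% were called higher. None of the 5 other members tested was called.

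Among these, Tyrobp differed by 0.25 (adjusted p = 0.116), Cst7 by 1.30 (0.527), Lpl by 1.29 (0.757), Cd9 by 0.18 (0.591) and Trem2 by 0.14 (0.775). The standard errors of Cst7 (0.584) and Lpl (0.745) were far above that of Tyrobp (0.0785). The missing calls of Cst7 and Lpl therefore do not show that these genes were unchanged. Itgax and Spp1 were not tested.

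The genes with the highest differences at 3 or more Apoe UMIs were the MHC class II chain gene Cd74 (log2 1.66), Lyz2 (1.51, 1008 against 344 CPM), Emp3, Klf2, Cd63 (1.06) and H2-D1 (0.85). Lower were Grap, Ddit4, Upk1b, the fructose transporter Slc2a5 and P2ry12, which measured 4171 against 5595 CPM (log2 -0.43). Ribosomal genes made up 10.7, 8.99, 9.37 and 8.86% of UMIs in the cells with Apoe and 8.29, 7.95, 7.37 and 7.03% in those without. The median mitochondrial share was 1.76, 1.46, 1.30 and 1.43% with Apoe, against 1.36, 1.25, 1.10 and 1.16% without. In the comparison at 1 or more Apoe UMIs, both shares were likewise higher with Apoe in each library. The ribosomal share was also higher in each library in the cells with Lpl, described below. The part of these differences in the calls was not tested. Without replicate 1, 13 genes were called in place of 71, and without replicate 4 it was 15.

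Lpl was found in too few thinned cells to be tested (14 cells in replicate 1 and 17 in replicate 4, under the minimum of 20), so its classes were formed from all UMIs of each cell (30, 49, 43 and 46 cells with Lpl). Apoe was higher with Lpl in 4 of 4 libraries, at 1096 against 433, 4470 against 415, 5201 against 243 and 2208 against 520 CPM (log2 2.91, SE 0.085, adjusted p = 3.86e-251). That p rests on 1 estimate of spread shared by all genes, and with a robust estimate, which lets Apoe keep its own spread, it was 0.497. Cst7 was higher in 4 of 4, at 69.4 against 15.04, 67.1 against 16.4, 52.9 against 14.2 and 90.2 against 14.6 CPM (log2 2.16, SE 0.351, adjusted p = 2.71e-07), and it was called in every alternative. In the cells with Lpl, these Cst7 levels came from 5, 11, 6 and 13 UMIs.

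Cd9 was higher with Lpl in 4 of 4 libraries, at 3399 against 2034, 3037 against 1816, 3094 against 2114 and 2881 against 1988 CPM (log2 0.58, SE 0.073, adjusted p = 2.92e-12). Itgax measured 27.7 against 1.59, 30.5 against 1.64, 17.6 against 2.67 and 6.94 against 1.96 CPM, from 2, 5, 2 and 1 UMIs in the cells with Lpl. Axl measured 13.9 against 2.89, 36.6 against 2.28, 17.6 against 1.42 and 6.94 against 2.999 CPM, from 1, 6, 2 and 1 UMIs. Both reached the minimum on low counts in the cells with Lpl alone, so their calls are not read as a result either. Fitted without that filter, Itgax differed by 3.24 on the log2 scale (adjusted p = 0.00786) and Axl by 2.94 (adjusted p = 0.0164). Here too, the values rest on the same few UMIs and are not read as a result.

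Trem2 (log2 0.06, adjusted p = 0.919) and Tyrobp (0.05, adjusted p = 0.931) did not pass the test. Lgals3, at 0, 256, 35.3 and 174 CPM with Lpl, and Spp1, at 111, 134, 26.4 and 0 CPM with Lpl, were not tested, and each was at 0 in 1 library. Of 9630 genes 0.758% were called higher. Of the 5 members that reached the minimum in both classes, Apoe, Cst7 and Cd9 were called. Without the cells of cluster 6, Apoe and Cst7 were still called (log2 1.92 and 1.78), Cd9 was not (log2 0.31, adjusted p = 0.0610), and Itgax and Axl were too scarce to be tested.

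Cells with Lpl had more UMIs in replicate 1 (median 2289 against 1901) and in replicate 3 (2490 against 2185). Against 10 cells of nearest UMI total per cell with Lpl, the log2 differences were 2.67 for Apoe, 1.75 for Cst7 and 0.65 for Cd9, all called. Other genes called higher included Emp3, Capg, Stmn1, the Toll-like receptor gene Tlr2 (log2 1.27), Lyz2 (1.24), Gpr84 (1.11) and Cd83 (1.06), and Eng, Cryba4, Siglece and Clec4a2 were among those lower.

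Cells with a UMI of Cst7 (50, 54, 24 and 41 cells) differed in few genes. Apoe measured 1622 against 419, 408 against 435, 292 against 300 and 1050 against 525 CPM, higher in 2 of 4 libraries, so its call (log2 0.83, adjusted p = 1.66e-04) rested on replicates 1 and 4 and was lost without replicate 1 (log2 0.22, adjusted p = 0.975). In either direction 0.0743% of 8073 genes were called, and Apoe was the only one of the 4 members tested. Lpl was too scarce to be tested. It measured 0, 0, 0 and 24.4 CPM with Cst7, from 0, 0, 0 and 1 UMIs, against 5.85, 11.4, 13.1 and 6.01 CPM without. Lyz2 was called higher, and P2ry12, Selplg, Serinc3 and Arpp19 lower, but without TMM scaling 6 genes were called higher and 0 lower, and at 2000 UMIs per cell 9 higher and 0 lower. The median gene had a log2 difference of -0.25 in this fit with TMM scaling and -0.04 without it, so Trem2 changed from -0.03 to 0.19, Tyrobp from -0.10 to 0.12 and Cd9 from -0.01 to 0.21.

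**Figure D5:**
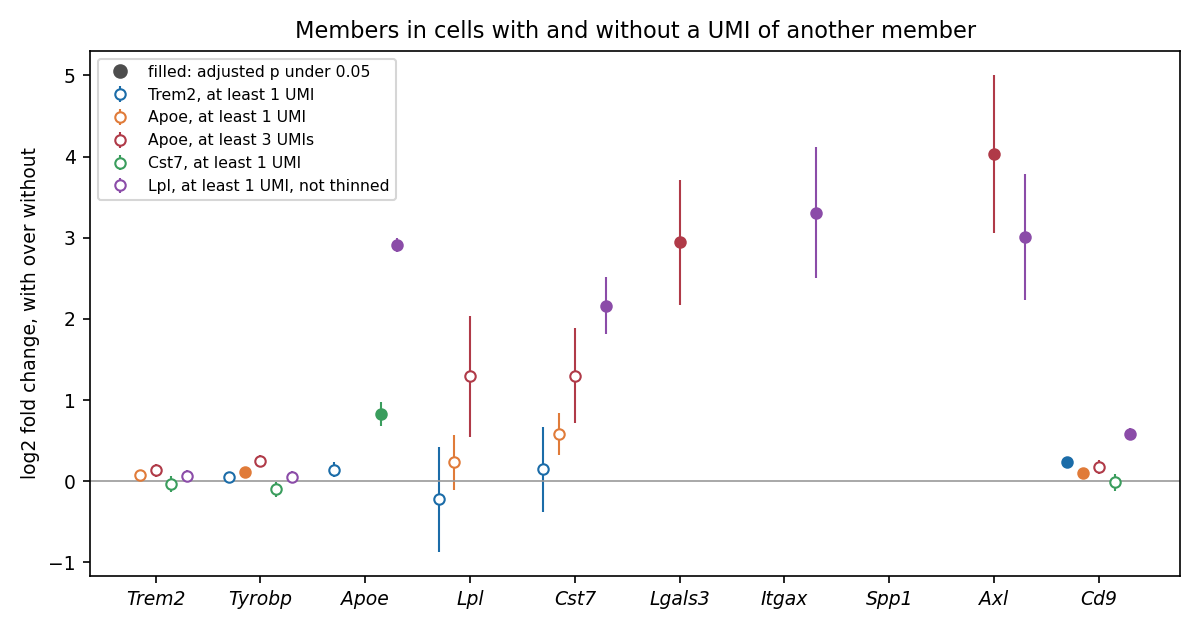
Log2 fold change (points; bars, standard error) of each member in cells with over cells without a UMI of another member, from edgeR fits over 4 libraries. Filled points had an adjusted p under 0.05, and members that did not pass the filter on low counts have no point. Trem2 and Tyrobp lie within 0.25 of 0 in all fits, while Apoe, Cst7 and Cd9 are higher with Lpl. Itgax and Axl with Lpl, and Axl and Lgals3 with 3 or more Apoe UMIs, rest on 1 to 6 UMIs a library in the cells with the member. Their filled points are not read as results.

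Of the 14 TREM2 signalling partners, none was called with Trem2, Apoe, 3 or more Apoe UMIs or Cst7 by edgeR or DESeq2, with 1, 0, 1 and 3 of them at an unadjusted p under 0.05. With Lpl, Cd33 was called lower by edgeR and not by DESeq2. No partner was called lower with Lpl without replicate 2, without replicate 3, without cluster 6 or against cells of nearest UMI total. Against those cells of nearest UMI total 1 partner was called higher, and without TMM scaling 1 was higher and 1 lower. Of the other genes of disease-associated microglia, 10 of 19 tested were called higher with Lpl (Cd63, Ctsb, Ccl6, Fth1, Cd52, Cd83, Ctsz, Cd68, Cox6a2 and Cadm1), with a median log2 difference of 0.54 against -0.07 over all genes. Without cluster 6 this count was 1.

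With Apoe, 5 of 17 of these genes were called higher (Cd63, B2m, Ctsb, Fth1 and Ctsl), with a median of 0.11 against 0.00 over all genes, and with 3 or more Apoe UMIs 5 of 17 (Cd63, Ctsb, B2m, Fth1 and Cd52), with a median of 0.27 against -0.08. With Trem2, Ctsd was the only 1 of 17. With Cst7 none was called by edgeR or DESeq2, where 4 had an unadjusted p under 0.05, but 3 of 17 were called higher without TMM scaling, 3 of 20 at 2000 UMIs and 17 of 22 without thinning. Of 15 homeostatic genes, 7 were called lower with Lpl (P2ry12, Selplg, Tmem119, Fcrls, Siglech, P2ry13 and Gpr34), 5 with 3 or more Apoe UMIs (P2ry12, Fcrls, Gpr34, Selplg and Tmem119) and none with Apoe by edgeR or DESeq2, where 4 had an unadjusted p under 0.05. With Apoe, 2 were lower without TMM scaling, 2 over all cells, 1 without the filter on low counts and 1 at 2000 UMIs. In the other direction, 1 was higher without replicate 1, 1 without replicate 2 and 1 without thinning. Without replicate 1 or without replicate 4, the counts with 3 or more Apoe UMIs were 1 for either list. Whether these counts differ between the fits was not tested. The exAM genes called with Lpl were Ccl4, Klf2, Atf3, Ccl3 and Hsp90aa1 (higher) and Rhob (lower), and with Apoe it was Klf2 (higher). Their part in the members' differences was not tested.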

How the data were processed

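Per the labels and the study's methods, the authors made 10x Genomics 3′ libraries (kit version 2) and counted them with Cell Ranger 2.2.0 on mm10 (GRCm38). The deposited files hold UMI counts per gene and cell, with cells already called and replicates not pooled. The depth per library was 5841671 to 11267195 UMIs in cells passing quality control (at least 400 genes, at most 10% mitochondrial UMIs). Members and lists were chosen with earlier results of these data known. Named genes were the members, the 10 genes most raised and 5 most lowered in each fit (mean of at least 50 CPM, same direction in every library), and up to 3 genes most correlated with each member.

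Here, counts were summed per library and given as CPM, cells were thinned to 1000 UMIs (265 shallower cells left out), and clusters were made with scanpy 1.11.5 (Leiden resolution 0.5, 2000 variable genes, 20 components, 15 neighbours). A cluster was named from markers. Sums of cells with and without a member were tested with edgeR 4.0.16 (quasi-likelihood, TMM, library as block, classes of at least 20 cells per library) and, as an alternative, DESeq2 1.42.0. The 2 classes of a library come from the same mouse, which is the pairing. The prior degrees of freedom were infinite in all fits but that of Trem2, so all genes shared 1 spread. On simulated data, 98% of 2-fold changes were recovered for Trem2 and 100% for Apoe. The shares were 88% for 3 or more Apoe UMIs, 90% for Lpl and 42% for Cst7. They were not split by level, so they do not give the recovery for genes as scarce as the rare members. Poisson and Clopper-Pearson intervals (95%) and the floor of 3 counts cover counting error only. With 1 mouse per library, p-values concern these 4 mice only. In all fits but that of Trem2 they rest on the shared spread and not on each gene's own spread between the mice. The fits of Lpl on all UMIs and of 3 or more Apoe UMIs, and the alternatives on TMM, robust and bias-adjusted estimates, cluster 6 and depth matching, were added after seeing the data. Of the genes this naming rule selects, 1 is not reported here.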

Additional observations from a re-analysis of the deposited data

Results flagged for a closer look

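Of 30 sets of 4 values tested with Dixon's range test over the members, 3 had 1 library apart, and chance gives about 1 in 20. The level of Tyrobp was highest in replicate 2 (ratio of gap to range 0.838), and so was its share of cells with a UMI (0.937), at 97.1% against 95.9 to 96.0%. The level of Itgax was highest in replicate 3 (0.927), from 20 UMIs.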

How the results depend on the processing

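The 3 constitutive and 6 rare members were the same in number under every alternative (3 to 3 and 6 to 6 without 1 replicate each). Of 90 alternative values of the members' levels, 89 moved by less than 1 SD, the exception being Lgals3 in microglia-like cells (4.47 CPM). Of 60 alternative shares of cells, 12 moved further: all 10 members at 2000 UMIs, and Lgals3 (0.510%) and Axl (0.285%) over all cells. The number of members with 1 library apart was 1 with TMM factors or DESeq2 size factors (Itgax), 1 with at least 1000 genes per cell (Axl) and 0 in microglia-like cells. Genes called with Trem2 (2) became 1 with DESeq2, 21 without the filter on low counts, 64 over all cells and 1 to 3 without 1 replicate each. Those called with Apoe (83) became 30 with DESeq2, 150 over all cells, 175 without thinning and 48 to 64 without 1 replicate each. Those called with Cst7 (6) became 0 with DESeq2, 1 with the bias-adjusted test, 107 without thinning and 0 (without replicate 1) to 7. Those called with Lpl (131) became 61 with DESeq2, 86 with the bias-adjusted test, 19 without cluster 6 and 66 (without replicate 2) to 114. Those called with 3 or more Apoe UMIs (71) became 38 without the filter, 107 without TMM, 41 with the bias-adjusted test, 287 over all cells, 164 at 2000 UMIs, 363 without thinning and 13 to 80 without 1 replicate each. Without the replicate block, which pairs the 2 classes of a library, the counts were 0 (Trem2), 0 (Apoe), 3 (Cst7), 62 (Lpl) and 11 (3 or more Apoe UMIs). The cause of these changes was not tested. Not run were Lpl at 1000 UMIs, and Trem2 at 2000 UMIs or without thinning, for want of cells. Depth sets the shares of cells: at 2000 in place of 1000 UMIs per cell that of Apoe was 32.6%, against 20.5%.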

Other observations

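Cst7 and Lpl, which are often named together as genes of disease-associated microglia, differed in the share of their UMIs in cluster 6. Cst7 had 529 UMIs and Lpl 299, yet 8.88% of the Cst7 UMIs and 45.8% of those of Lpl lay there. That cluster was singled out by its Lpl level, and 5 of its cells held 69.3% of its Lpl UMIs. By cells, 26 of the 168 microglia-like cells with Lpl and 29 of the 442 with Cst7 lay in it. In the interferon-responsive cluster 4, Cst7 measured 28.7 CPM and Axl 12.3 CPM, from 14 and 6 UMIs, while Lpl had 1 UMI and Lgals3 had 0. Axl there was at 29.8 CPM in replicate 1, 5.80 CPM in replicate 2 and 0 in the other libraries.

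Several genes of disease-associated microglia outside the member list were also higher in cluster 6 than their mean over libraries. Lilrb4a measured 123 CPM against 3.15 CPM, Csf1 78.6 against 6.37, Igf1 22.4 against 1.39, Cd63 3140 against 730 and Ctsb 6908 against 2632 CPM. Gpnmb had 2.81 CPM in cluster 6, under the level of 3 UMIs there (8.42 CPM), and Ch25h had 0. These values are descriptions of 93 cells.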
